A study of Mus musculus with 6 samples.

Results

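Of the 56605 probes on the array that were not controls, 4450 (7.86%) carried no gene or transcript accession and were named by a stretch of a chromosome. They were taken by their systematic name, which starts with chr and gives a start, an end and, for all but 1 region, a strand (F or R). They belonged to 4062 stranded regions, 2068 forward and 1993 reverse, at 3230 positions. The measurements came from microglia isolated from mice with acute ischemic stroke (AIS), with 3 arrays of control samples (PGC-1α f/f) and 3 arrays of mPGC-1α samples. All mice were labelled as male and 10 weeks old. All mice, controls included, had a Pgc-1α transgene with an eGFP tag that stays silent until Cre recombinase acts. Only mPGC-1α mice also had such a Cre (Cx3cr1-Cre/ER), which tamoxifen induces and which is driven by Cx3cr1, a gene active in microglia and also in other myeloid cells. Cells were taken by a magnetic selection for the receptor P2RY12, and the labels do not say how many mice stood behind a sample. P-values therefore measure only the spread between these samples.

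Regions of this kind are placed on arrays to measure long intergenic noncoding RNA (lincRNA). LincRNAs are transcribed between protein-coding genes, are often spliced and polyadenylated, and as a class are known for low and tissue-restricted levels. Some act on chromatin or on neighbouring genes, and for most no function is known. A probe against each strand can tell an RNA from its antisense partner, as long as labelling keeps the strand. Each region is given here as the array design gives it, in mouse build mm9. Whether a region overlaps a gene that was annotated later was not checked, so that a region named by position is not thereby shown to lie outside genes.

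The regions lay on 20 chromosomes, with 0 on Y. They were 62 to 538251 bases long, with a median of 10251. Most of them (3746) had 1 probe, 316 had several, and 2 had 6. At 832 positions (25.8%) both strands were probed. Many positions overlapped each other, and merging the overlaps left 2150 separate stretches of the genome. Probes of the same or overlapping regions are thus not independent of each other.

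In these microglia most regions gave a signal. On the arrays of the first slide, 87.2% (control 1), 90.0% (control 2), 88.4% (mPGC-1α 1) and 85.8% (mPGC-1α 2) of the probes were well above background by the scanner's own flag. On the second slide the share was 70.9% (control 3) and 68.1% (mPGC-1α 3). The group means were 82.7% ± 10.3 (SD, n = 3) for control and 80.8% ± 11.0 (SD, n = 3) for mPGC-1α, so the groups differed by far less than the slides. For comparison, of the 29937 probes named by a curated messenger RNA accession (NM_), 89.5%, 90.9% and 81.1% were well above background on control arrays 1, 2 and 3. On mPGC-1α arrays 1, 2 and 3 this share was 89.6%, 89.1% and 77.5%. The distance between regions and NM_ transcripts was thus larger on the second slide.

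On all 6 arrays, 2967 of the 4450 region probes (66.7%) were well above background, compared with 77.9% of NM_ probes. On none of the arrays were 336 (7.55%), close to the 7.16% of NM_ probes. Regions and transcripts lay further apart in a middle class than among these probes above background on none of the arrays. Well above background on the 4 arrays of the first slide and on neither of the second were 482 region probes (10.8%), compared with 5.07% of NM_ probes. The opposite pattern was seen for 0 region probes. The dimmest signal that still counted as well above background lay at a level between -7.12 and -6.73 on the first slide and at -5.63 and -5.37 on the second.

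Levels are given as log2 of the processed signal minus the array's 75th percentile, so that a level of 0 is as bright as the upper quartile of all spots. The regions were dimmer than the transcripts on every array. Their median level was -3.65, -3.31 and -3.80 in controls 1, 2 and 3 and -3.48, -3.52 and -3.85 in the mPGC-1α arrays. The NM_ medians lay between -2.32 and -1.76. The distance of the medians averaged 1.64 on the log2 scale over the 6 arrays. Between 11.8% and 14.0% of region probes on an array exceeded its 75th percentile, compared with 24.7% to 29.4% of NM_ probes. Probes differ in how well they bind, so these are comparisons of distributions and not of single RNAs.

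**Figure D1:**
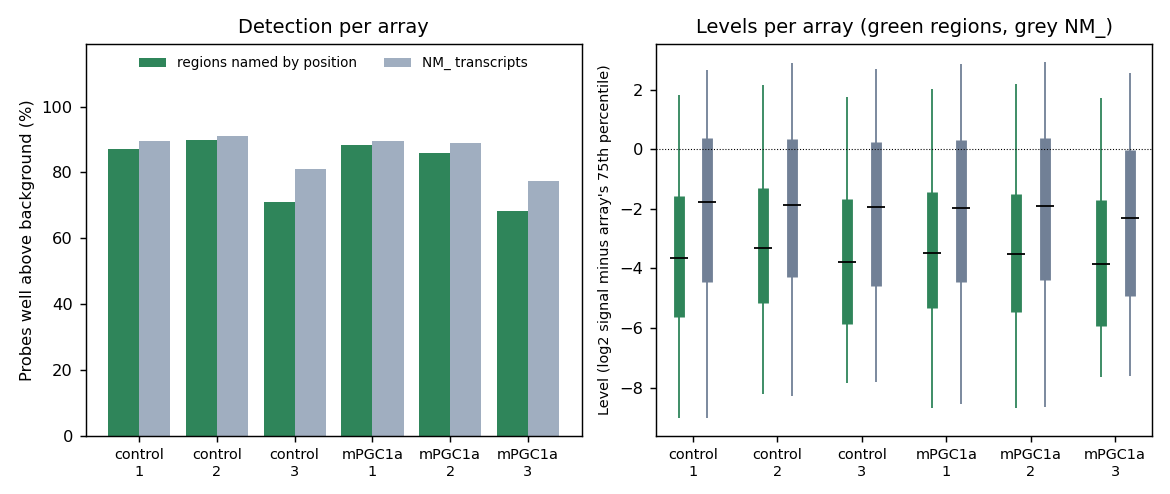
Left, share of probes well above background (%) on each array for regions named by position (green) and NM_ transcripts (grey). Right, levels (log2 signal minus the array's 75th percentile) of the same probes, with the median as a black mark, the quartiles as thick bars and the 5th to 95th percentile as thin lines. Control 3 and mPGC-1α 3, the arrays of the second slide, had the lowest shares, and the regions lay below the transcripts on each array.

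Longer regions were brighter. The 1113 probes in the shortest regions (62 to 1736 bases) had a median level of -4.36, and 55.5% of them were well above background on all 6 arrays. In the next 1115 (1738 to 10601 bases) the median was -3.68 with 68.3% detected on all arrays. In the longest regions (10611 to 25760 and 25777 to 538251 bases) the medians were -3.09 and -3.08, with 71.6% and 71.3%. Forward and reverse probes were alike in this respect, with medians of -3.65 and -3.51.

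The brightest regions lay above the 95th percentile of the NM_ probes, which was 2.56 to 2.93 on the 6 arrays. The region chr14:78924115-78938125 (forward) was the brightest of those well above background on all arrays. Its levels were 5.89, 6.69 and 6.40 in control and 6.57, 6.59 and 6.51 in mPGC-1α, and the groups overlapped. Next were chr7:82902248-82955248 (forward), with means of 6.01 ± 0.35 (SD, n = 3) in control and 6.26 ± 0.18 (SD, n = 3) in mPGC-1α, and chr6:116092274-116144199 (forward), with 5.92 ± 0.36 (SD, n = 3) and 6.22 ± 0.09 (SD, n = 3). They were followed by chr2:180161459-180189542 (reverse), chr15:77164450-77201325 (forward), a region of 1999 bases on chromosome 18, chr11:60728207-60745369 (reverse), chr17:39983902-39985688 (forward), chr6:92040526-92041319 (forward) and chr3:92065425-92086850 (forward).

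All 10 brightest regions had a higher mean level in mPGC-1α, by 0.19 to 0.43, but in 3 of them (on chromosomes 14, 7 and 3) the sign turned under quantile normalization, normexp and in the series matrix. None passed the test, with adjusted p-values (limma) of 0.71 to 0.85. The largest difference, 0.43 ± 0.20 (SE), was that of chr17:39983902-39985688. Its levels were 4.57, 5.21 and 4.91 in control and 5.29, 5.50 and 5.19 in mPGC-1α, and the groups overlapped at control 2.

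The opposite strands of a position are read by different probes, so a distance between their levels cannot be told apart from the probes' binding. At chr14:78924115-78938125 the reverse strand had levels between -3.65 and -2.80, whereas the forward strand was the brightest region of all. At chr5:125861675-125880125 the forward level was 5.53 to 5.79 on the 4 arrays that measured it and the reverse level -2.38 to -1.34 on 6. At chr6:116092274-116144199 both strands were bright, with 5.56 to 6.30 forward and 3.83 to 4.57 reverse.

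Both strands were tested at 566 positions. The median distance between their levels was 1.47 on the log2 scale, and it exceeded 2-fold at 345 (61.0%). Probes of the same region and strand also lay apart, with a median distance of 1.64 between the dimmest and the brightest in 198 regions. This measure is not quite alike, since it grows with the number of probes, which was 2 in 164 of the regions. The distance between strands is thus not separated from that between probes and cannot be read as a difference of the strands. Over these 566 positions, whose 2 values share arrays and location, the levels of the strands correlated at r = 0.41 and the differences between groups at r = 0.22. The difference had the same sign on both strands at 324 positions (57.2%). Of all 832 positions probed on both strands, 512 had both well above background on all 6 arrays, 224 had 1 strand and 96 had none.

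**Figure D2:**
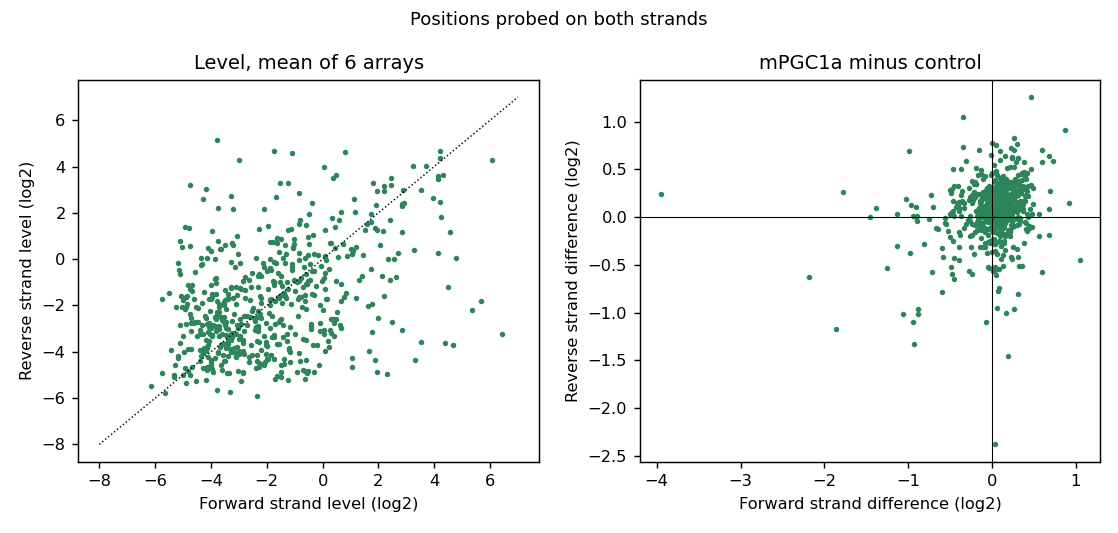
Left, mean level over the 6 arrays (log2 signal minus 75th percentile) of the forward and the reverse strand at 566 positions, with the line of equal levels dotted. Right, difference of mPGC-1α minus control (log2) on the same strands. The points spread widely around equality in level (r = 0.41) and show little relation in the difference (r = 0.22).

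In these 198 regions with several tested probes of 1 strand, all probes shared the sign of the difference between groups in 112 (56.6%). The 5 probes of chr10:56151791-56184966 (reverse) had levels on control 1 of -9.21, -7.08, -3.94, -3.62 and 0.54. The 6 probes of chr14:65720392-65769859 (reverse) were closer, with levels on control 1 between -2.96 and -0.70 and differences between -0.01 and 0.25. By contrast, all 6 probes of chr17:26911397-26917047 (reverse) were lower in mPGC-1α, by between 0.12 and 1.31 on the log2 scale, none past the adjusted threshold.

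The comparison of mPGC-1α with control asks which of these regions change when microglia overexpress PGC-1α after stroke. After the filter on dim probes, 3219 region probes (72.3%) of 2976 regions were tested, together with 24238 NM_ probes (81.0%) and all others, 40745 in all. The regions moved little. Their median difference was 0.06 on the log2 scale, equal to that of all probes tested (0.06), and 97.0% changed less than 2-fold. The middle 90% of the differences ran from -0.66 to 0.47, compared with -1.07 to 0.54 for NM_ probes. The median moved between -0.06 without control 3 and 0.24 without control 2.

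No region passed an adjusted p of 0.05, and 0% of all probes tested did (limma with Benjamini-Hochberg adjustment). The smallest adjusted p of a region was 0.67. An unadjusted p under 0.05 was reached by 111 region probes (3.45%), compared with 2912 of all probes (7.15%) and 9.08% of NM_ probes. Under a looser rule (2-fold and an unadjusted p under 0.05), 52 region probes (1.62%) were lower and 10 (0.311%) were higher in mPGC-1α. The share of all tested probes was 3.23% lower and 0.736% higher, so both shares of the regions lay below the background. For NM_ probes they were 4.25% and 0.854%. Of the 52 region probes 37, and of the 10 region probes 7, were well above background on all 6 arrays. Where the rest were not so in 1 group, they entered the test only through the other group. The 3 mPGC-1α values lay above the 3 control values in 86 of 3097 region probes measured on all arrays (2.78%, background 5.87%), and below them in 114 (3.68%, background 5.15%).

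**Figure D3:**
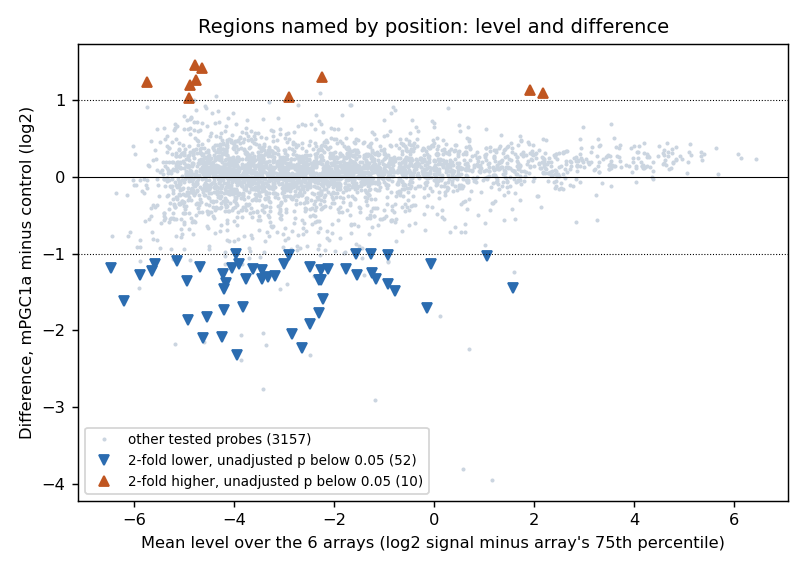
Difference of mPGC-1α minus control (log2) against the mean level over the 6 arrays (log2 signal minus 75th percentile) for the 3219 region probes tested. Triangles mark the 52 probes that were 2-fold lower and the 10 that were 2-fold higher at an unadjusted p under 0.05. None passed the adjusted threshold, and the probes with the largest differences are not among the triangles.

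The lower share of differences was seen at nearly all levels and not only among dim probes. Among probes with a mean level of -5 or less, 3.16% of the region probes and 15.3% of the NM_ probes were lower by the looser rule. Between -5 and -3 the shares were 1.90% and 6.85%, between -3 and -1 they were 1.74% and 5.91%, and between -1 and 1 they were 0.962% and 1.92%. Only above 1 were they alike, with 0.538% and 0.426%. By chromosome, the median difference of the regions ran from 0.03 on chromosome 17 to 0.11 on chromosome 6.

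The decrease with the smallest unadjusted p among the regions was on chromosome 19. At chr19:23068397-23190256 (reverse, 121860 bases) 1 probe had levels of -2.25, -3.88 and -2.21 in control and -4.96, -5.03 and -5.33 in mPGC-1α. The groups did not overlap, control 2 was the lowest control, and the difference was -2.33 ± 0.46 (SE). This probe was well above background on 3 control and 2 mPGC-1α arrays, so it entered the test through the controls. A second probe there had -2.89, -4.43 and -2.73 compared with -5.38, -5.18 and -4.68, a difference of -1.73 ± 0.47 (SE). The remaining, brighter probe had -2.17, -2.19 and -1.54 compared with -2.84, -2.27 and -2.94, a difference of -0.72 ± 0.30 (SE). All 3 probes of this region were thus lower in every mPGC-1α sample.

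The next decreases had the same shape. The level of chr4:54851872-54866706 (reverse) was -2.49, -3.65 and -2.77 in control and -4.82, -4.32 and -4.86 in mPGC-1α, a difference of -1.70 ± 0.37 (SE). That of chr14:118774481-118873242 (reverse) was -1.24, -3.21 and -0.99 compared with -3.85, -3.81 and -3.92, a difference of -2.05 ± 0.52 (SE). That of chr7:99879368-99889978 (forward) was -0.57, -2.68 and -0.98 compared with -2.87, -3.30 and -3.40, a difference of -1.78 ± 0.49 (SE). In each of them control 2 was the lowest control. It lay about midway between the other controls and the mPGC-1α samples on chromosome 4 and closer to the mPGC-1α samples on chromosomes 14 and 7. At chr8:48476637-48492537 (forward) the control values were 1.57 and 1.59 and the mPGC-1α values 0.36 and 0.74, with control 2 and mPGC-1α 3 left out as marked spots.

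These regions were chosen for a small unadjusted p and no overlap, so their tests are given as a description. All had an adjusted p of 0.67 (limma). Choosing regions without overlap fixed the exact permutation p beforehand. It was 0.1 for each of the probes measured on 6 arrays, the smallest p that 3 against 3 samples can give. It was 0.33 for the probe on chromosome 8, which had 4 values. Without control 2, the adjusted p of the other 5 probes ranged from 0.00076 (chr14:118774481-118873242) to 0.0065 (chr4:54851872-54866706). That of chr8:48476637-48492537 was 0.045, although no value of its own changed, since it had none on control 2. With normexp the 6 differences were -1.51 to -0.86.

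Increases were fewer. The level of chr9:68349343-68411643 (reverse) was -5.58, -5.14 and -5.48 in control and -3.67, -4.30 and -4.46 in mPGC-1α, a difference of 1.26 ± 0.34 (SE). That of chr5:104936417-104984892 (forward) was -3.27, -3.26 and -3.78 compared with -1.91, -2.69 and -2.58, a difference of 1.04 ± 0.31 (SE). In both of them mPGC-1α 1 was the highest sample and the groups did not overlap.

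The other increases chosen in this way were chr6:90749574-90750492 (reverse, 1.30 ± 0.46, SE), chr14:52874069-52877398 (reverse, 1.41 ± 0.50, SE), chr16:40267386-40268181 (forward, 1.20 ± 0.46, SE) and a forward region of 583 bases on chromosome 18 (1.03 ± 0.41, SE). With normexp background correction the 6 differences were 0.27 to 0.98, all under 2-fold, with 0.52 at chr9:68349343-68411643, 0.27 at chr14:52874069-52877398 and 0.49 at chr16:40267386-40268181. At chr6:90749574-90750492 the lowest mPGC-1α sample (-2.33) and the highest control (-2.42) were nearly equal. The probes on chromosomes 14 and 18 were well above background on 2 control and 3 mPGC-1α arrays, so they entered the test through mPGC-1α. Adjusted p-values (limma) were 0.67 to 0.68 for all 6. The exact permutation p was 0.1 for each, a value fixed beforehand by choosing regions without overlap. Without control 2 the adjusted p-values (limma) ran from 0.063 to 0.24, so that none of these increases passed there either. The brightest of the 10 increases, singled out after their values were seen, were 2 overlapping forward regions on chromosome 7. At chr7:67047536-67050290 the levels were 1.34, 2.20 and 1.36 in control and 3.78, 2.19 and 2.19 in mPGC-1α, and at chr7:67001975-67050575 they were 1.11, 2.01 and 0.92 compared with 3.57, 2.05 and 1.81. In both of them mPGC-1α 1 was far above the other samples, and the groups overlapped.

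**Figure D4:**
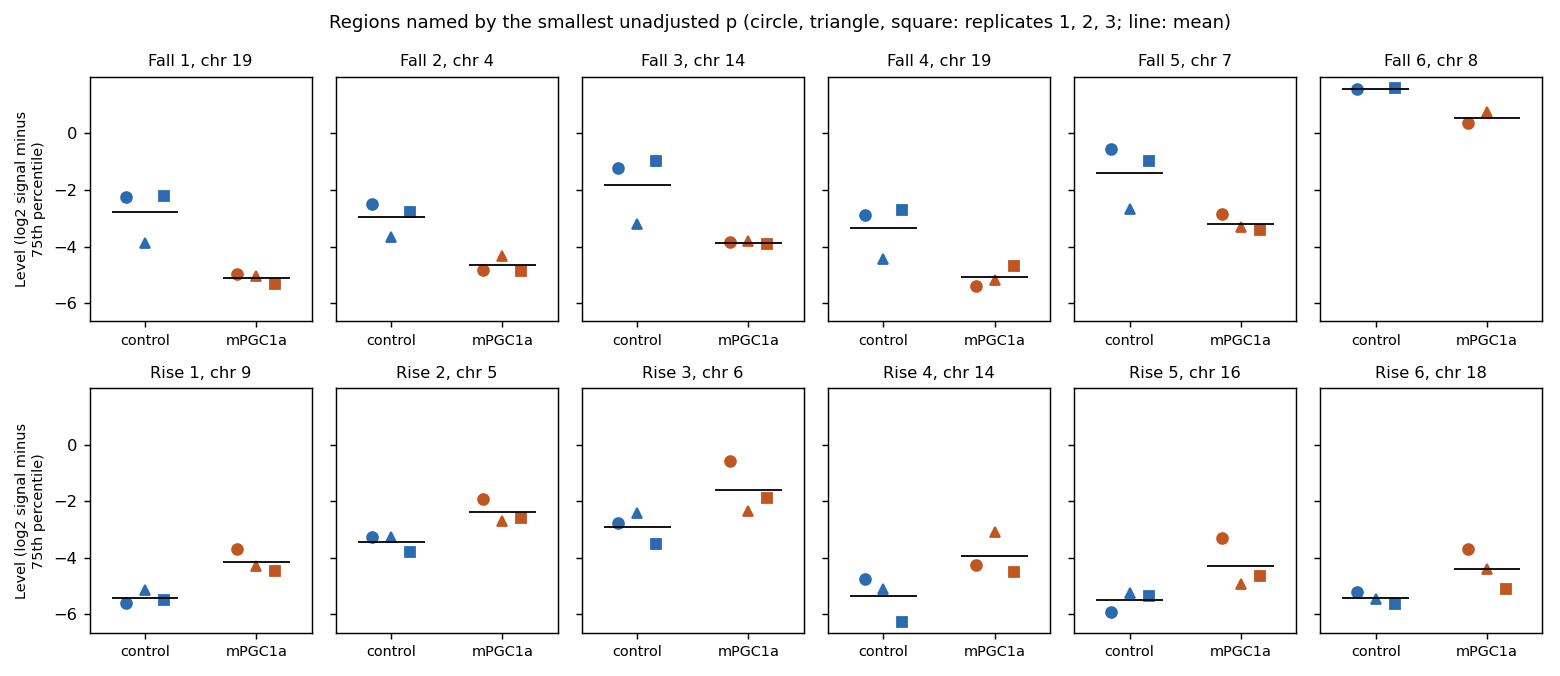
Level (log2 signal minus 75th percentile) in each sample for 6 decreases (upper row) and 6 increases (lower row) of 2-fold or more without overlap, those with the smallest unadjusted p. Circles, triangles and squares are replicates 1, 2 and 3, and lines are group means. In the upper row control 2 (triangle) is the lowest control wherever it was measured, and falls 1 and 4 are probes of the same chromosome 19 region.

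Control 2 stood apart from the other controls across the decreases. Over the 52 probes that were 2-fold lower, the median level was -2.07 on control 1, -3.65 on control 2 and -2.14 on control 3, and -3.93, -3.79 and -4.06 on mPGC-1α arrays 1, 2 and 3. In 44 of the 51 with a value there (86.3%), control 2 lay closer to the mPGC-1α mean than to the mean of the other controls. The same held for 85.4% of the NM_ probes with such a decrease. Over all tested region probes, which share probe affinities, control 2 correlated most with mPGC-1α 2 (r = 0.988), and control 1 with control 3 (r = 0.977). The 75th percentile itself was highest on control 1 (1540) and control 3 (1288), compared with 927 on control 2 and 932 to 1189 on the mPGC-1α arrays. Its part in these differences was not tested.

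Without control 2, 81 region probes (2.55%, background 5.1%) were lower and 7 (0.221%, background 0.318%) were higher in mPGC-1α at an adjusted p under 0.05 (limma). Of the 52 probes above, 42 were among the 81. Values without overlap then became common in the upward direction, with 955 of 3107 region probes (30.7%) higher in mPGC-1α, compared with a background of 27.7%. Lower were 293 (9.43%), with a background of 16.1%. With fewer arrays to overlap, the upward share of the regions was thus near the background, and the downward share below it. Within the slides, the 52 probes had a median difference of -1.06 on the first, which holds control 2, and -1.88 on the second. The second slide compares control 3 with mPGC-1α 3 alone. Because the 52 were chosen on these same arrays, the direction on each slide was largely set by that choice and is given as a description.

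A region on chromosome 12, singled out after its values were seen, showed this in several probes. At chr12:16833551-16901804 (reverse) all 5 probes were lower in mPGC-1α, with differences from -2.08 to -0.80, and 3 of them passed the looser rule. The probe with the largest difference had levels of -2.21, -5.30 and -2.07 in controls 1, 2 and 3 and -4.98, -5.49 and -5.36 in mPGC-1α. It was well above background on 3 control and 2 mPGC-1α arrays, so it entered the test through the controls. Without control 2 all 5 passed, with adjusted p-values (limma) of 0.001 to 0.025 and differences from -3.13 to -1.03. Such agreement between probes was not general. In 11 regions with several tested probes, 1 or more probes were lower by the looser rule. All probes were lower in mPGC-1α in 7 of the 11, and all passed the looser rule in 0.

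Decreases past the looser rule on both strands were seen at 2 positions, also singled out afterwards. At chr10:14888108-14978308 the forward level was -2.85, -6.00 and -3.16 in control and -6.90, -5.40 and -5.30 in mPGC-1α. The reverse level there was -3.55, -4.86 and -3.88 compared with -5.41, -5.10 and -5.30. On the forward strand control 2 lay within the mPGC-1α values, and on the reverse strand just above them. The forward probe was well above background on 1 mPGC-1α array and the reverse probe on 2. Both entered the test through the controls. At chr12:45415565-45423519, 6 of 8 probes were tested, 3 on each strand, and all were lower in mPGC-1α, by between 0.40 and 1.28 on the log2 scale. The probes with the largest decrease on each strand (-1.28 reverse, -1.22 forward) were well above background on 3 control and 2 mPGC-1α arrays. These probes, too, entered the test through the controls.

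Detection separated the groups at 2 of the 4450 region probes only. At chrX:121493684-121500532 (forward) the signal was well above background on all 3 controls and on 0 of 3 mPGC-1α arrays. Its levels were -6.83, -4.96 and -4.66 in control and -7.14, -6.71 and -5.36 in mPGC-1α, and the groups overlapped. Its difference was -0.92 ± 0.65 (SE), with an adjusted p of 0.81 (limma), and ran from -1.59 to -0.29 over the alternatives. At chr4:13409708-13410346 (reverse) the levels were -6.81, -5.60 and -5.24 in control and -7.24, -7.55 and -6.41 in mPGC-1α, and the groups overlapped here too. The difference of this probe was -1.19 ± 0.51 (SE), with an adjusted p of 0.69 (limma), and ran from -1.65 to -0.18 over the alternatives. The opposite pattern was seen in 0 regions. Of the 29937 NM_ probes, 21 were well above background on all controls and no mPGC-1α array and 0 the other way.

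The 5 largest differences by size were not among the probes above, because each rested on 1 spot. At chr3:104415775-104442425 (forward) the levels were 2.90, 3.66 and 2.86 in control and -9.15, 3.52 and 3.20 in mPGC-1α. At chr16:14803358-14819925 (reverse) they were 2.47, 2.36 and 2.62 compared with -9.19, 2.68 and 2.54. The mean differences of -3.95 and -3.81 became 0.22 and 0.13 without mPGC-1α 1. Altogether 11 of 4304 region probes with 6 values were at least 16-fold lower on mPGC-1α 1 than on any other array, 10 of them not well above background there. No region was so on another array. The same was true of 58 of 26916 NM_ probes on mPGC-1α 1. These spots carried no outlier mark in the files.

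Control 2 also differed from the 5 other arrays on the X chromosome, which held 174 of the region probes. Xist, the noncoding RNA that coats the inactive X chromosome in female cells, had levels of -0.86, -5.21 and -0.79 in control and -0.51, -0.97 and -0.89 in mPGC-1α, and was thus low on control 2 only. Of 7 probes of the Y-linked genes Ddx3y, Uty, Kdm5d and Eif2s3y, 6 were brightest on control 2 and 4 were well above background there and on no other array. The brightest of them, a probe of Eif2s3y, had levels of -9.02, -0.35 and -7.86 compared with -8.98, -8.79 and -7.50. Another Eif2s3y probe was also well above background on control 1, and a Kdm5d probe on all 6 arrays. Low Xist together with bright signal from most Y-linked probes, the pattern of male cells, was thus seen on control 2 only, although all 6 samples were labelled as male.

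Among the region probes, 26 were at least 2-fold brighter on control 2 than on each other array and well above background there. Of these, 10 were on X (5.75% of the X-linked probes, compared with 0.374% of the others). In the stretch of X between 120 and 123 Mb lay 9 of the 10, a stretch chosen after the values were seen, with 26 probes of 20 overlapping or neighbouring regions. Control 2 was the brightest array for 23 of these 26 probes, compared with 32.4% of the other X-linked probes and 45.6% of those on autosomes.

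The 3 X-linked probes on which control 2 was farthest from the mean of the other 5 arrays all lay there. The probe of chrX:122648893-122652122 (forward) had levels of -7.31, -3.99 and -7.59 in control and -6.91, -7.12 and -7.49 in mPGC-1α. A probe of chrX:120324027-120326909 (reverse) had -5.50, -3.04 and -6.65 compared with -5.73, -5.91 and -7.30. A probe of chrX:120590872-120598071 (reverse) had -9.36, -4.98 and -7.89 compared with -6.51, -8.87 and -7.56. None of the 3 was tested, since neither group was well above background throughout. In the opposite direction, chrX:100745320-100819322 (forward), noticed after the values were seen, was lowest on control 2, with -3.42, -4.53 and -3.52 in control and -3.06, -3.50 and -3.58 in mPGC-1α.

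**Figure D5:**
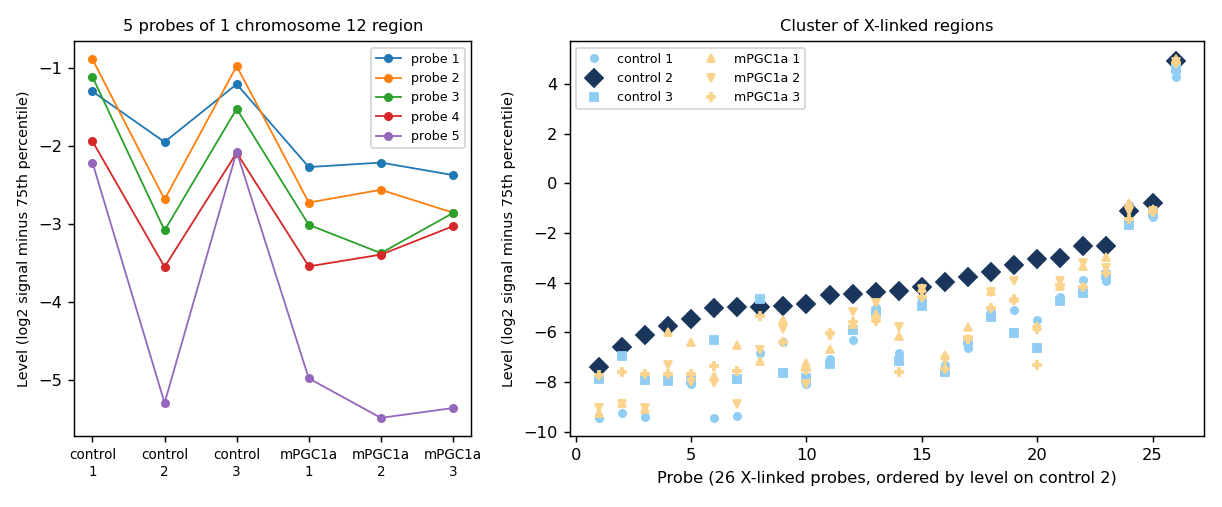
Left, level (log2 signal minus 75th percentile) of the 5 probes of a chromosome 12 region on each array; control 2 lies with the mPGC-1α arrays and not with controls 1 and 3 for 4 of them. Right, level of the 26 probes of the X-chromosome stretch on each array, ordered by their level on control 2 (dark diamonds), which is the brightest array for 23 of them.

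Of a list of 32 named long noncoding RNA genes, 24 had a named probe and 19 were tested, and 0 passed the adjusted threshold, as for all probes. Without control 2, 1 of 19 passed (Sox2ot, higher in mPGC-1α by 1.51), where 0.318% of all probes tested were higher. A single gene of 19 is too few to compare the shares. By mean, 16 of 19 were higher in mPGC-1α (84.2%), compared with 60.4% of the region probes and 57.9% of all probes. Xist, whose difference rests on control 2, is one of the 16, and without it 15 of 18 were higher. The median difference was 0.24, compared with 0.06 over all probes. Pantr1, transcribed next to a neural transcription factor gene, had levels of -3.56, -2.42 and -2.93 in control and -2.27, -1.08 and -2.03 in mPGC-1α, a difference of 1.18 ± 0.40 (SE). Sox2ot, which overlaps Sox2, had -4.32, -3.27 and -4.57 compared with -2.37, -3.05 and -3.35, a difference of 1.13 ± 0.41 (SE). These were the only members of the list with an unadjusted p under 0.05. Meg3, an imprinted maternally expressed RNA, had 2.20, 2.34 and 1.24 compared with 3.94, 1.94 and 2.57, and the groups overlapped. Neat1, which builds nuclear paraspeckles, had -0.36, -0.95 and -1.46 compared with -1.21, -1.28 and -1.26.

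Markers of other brain cells did not pass the adjusted threshold, but most had different means. All 8 neuron markers had a higher mean in mPGC-1α, compared with 57.9% of all probes, with a median difference of 0.92. An unadjusted p under 0.05 was reached by 5 of them (Tubb3, Syn1, Map2, Rbfox3 and Stmn2), compared with 7.15% of all probes. The mean level of the list was -0.90 to -0.48 in control and -0.52 to 0.59 in mPGC-1α, so that the groups overlapped between control 2 and mPGC-1α 3. All 6 oligodendrocyte markers (median 0.72) and all 5 tested of 6 astrocyte markers (median 0.56) were higher by mean too, and 4 of 5 tested ependymal markers were lower (median -0.86). The monocyte and macrophage list had a median of -0.21. Of the 10 microglia markers 8 were tested, and 3 of these were higher in mPGC-1α by mean (median -0.11). The mean level of the list was 3.742 to 3.834 in control and 3.610 to 3.738 in mPGC-1α. The part of other cells in the differences of regions was not tested. In bulk samples, fewer cells of a type and less RNA per cell cannot be told apart.

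As a check of the model, Ppargc1a, which encodes PGC-1α, had 2 probes. The brighter one had levels of -1.44, -0.94 and -0.93 in control and -1.49, -1.27 and -1.54 in mPGC-1α, and the other -2.54, -2.10 and -2.15 compared with -2.89, -2.37 and -2.82. The mean of neither was higher in the samples labelled as overexpressing it, and the groups overlapped on both. Cx3cr1, which drives the Cre, also had 2 probes. That tested had 3.81, 3.28 and 3.71 compared with 2.38, 1.95 and 2.72, a difference of -1.25 ± 0.24 (SE) with no overlap and an adjusted p of 0.67 (limma). On the other, with marked spots kept, the groups overlapped. Whether the Ppargc1a probes match the transgene's RNA is not known here.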

How the data were processed

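Microglia had been selected for P2RY12, and their RNA was amplified, labelled and hybridised to 1 single-colour Agilent array per sample. The deposited scanner files hold linear intensity values per spot, written by Agilent Feature Extraction 11.5.1.1, whose processed signal has the background taken off within each array. The series matrix deposited by the authors holds log2 values normalized between arrays and was used as an alternative. The labels name both Cy3 and Cy5, and the green channel in the files was used. One slide held replicates 1 and 2 of both groups, the other replicate 3.

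From the intensity, log2 of the processed signal minus the array's 75th percentile (taken over all non-control spots) was computed with R 4.3.3. Outlier-marked spots, whether non-uniform or population outliers (0.267% to 2.56% of region spots per array), were dropped, 0 region spots were saturated, and repeated spots were averaged per probe. Testing required 2 or more values per group, and, in 1 group or both, a signal well above background wherever the spot was unmarked. Of the tested region probes, 122 lacked a value. Groups were compared with limma 3.58.1 (lmFit, eBayes with intensity trend, two-sided), with Benjamini-Hochberg adjustment over 40745 probes. The procedure was tested on simulated data.

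The members, lists and rules were chosen with earlier results of these data known. Named were the 10 brightest regions, the 6 increases and 6 decreases with the smallest unadjusted p among those of 2-fold or more without overlap (none passed the adjusted threshold), regions detected in 1 group only, X-linked probes with control 2 farthest from the other arrays, the 3 regions with the most probes, the 5 strand pairs with the brightest member, and Ppargc1a, Cx3cr1 and Xist. Genes were named by matching accessions to RefSeq (GRCm38.p6). Regions keep their mm9 coordinates. No probe sequences were used here. The number of arrays limits the precision.

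Arrays with the same replicate number deviated from their group means together (r = 0.247, 0.224 and 0.171 across probes, and 0.035 or less for different numbers). The main comparison did not use this and treated the samples as unpaired. A fit blocked by replicate number, which pairs the samples, was an alternative. No label says what the numbers stand for. Alternatives were other normalizations, filters, detection flags, blocks and variance models, leaving out each array, the first slide alone, and a percentile over unmarked spots.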

Additional observations from a re-analysis of the deposited data

How the results depend on the processing

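The number of regions past the adjusted threshold stayed at 0 in each direction in every alternative but the one without control 2, which gave 7 higher and 81 lower, so leaving out single arrays gave 0 to 7 and 0 to 81. The cause was not tested. The counts at 2-fold and an unadjusted p under 0.05 (10 higher, 52 lower) moved more. Higher were 1 with normexp, 17 in the series matrix, 18 without the filter, 23 on the first slide only and 18 with the percentile over unmarked spots, the last 2 alternatives chosen after seeing the data. Lower were 32 with quantile normalization, 15 with normexp and 20 on the first slide. Leaving out single arrays gave 3 to 34 higher and 26 to 111 lower. Without control 1 the lower count was 26, and without mPGC-1α 3 the higher count was 34. Probes without overlap (86 higher, 114 lower) numbered 138, 134 and 145 higher with quantile normalization, normexp and the series matrix. Lower were 83, 85 and 84, so that the higher count was the larger in these alternatives and the smaller in the main setting. On the first slide, with fewer arrays to overlap, they were 347 higher and 364 lower, and leaving out single arrays gave 115 to 955 higher and 156 to 311 lower.

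In the fit blocked by replicate number, which pairs the samples, 0 regions passed, 12 were 2-fold higher and 78 were 2-fold lower at an unadjusted p under 0.05, and no call changed. Detection was 93.4% in place of 82.7% (control) and 92.4% in place of 80.8% (mPGC-1α) with the scanner's flag for signals above the local background, and without single arrays it was 79.1% to 88.6% and 77.0% to 87.1%. The distance between NM_ and region medians, 1.64, was 1.13 with normexp and 1.86 in the series matrix, and 1.58 to 1.68 without single arrays. The median difference ran from -0.06 to 0.24 over all alternatives. Of the named long noncoding RNA genes 0 to 1 passed without single arrays, the 1 without control 2.

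Under quantile normalization, normexp and the series matrix the difference turned to -0.086, -0.068 and -0.072 at chr14:78924115-78938125, to -0.039, -0.098 and -0.036 at chr7:82902248-82955248, and to -0.00094, -0.066 and -0.011 at chr3:92065425-92086850. Without mPGC-1α 1 it turned to 0.22 at chr3:104415775-104442425 and 0.13 at chr16:14803358-14819925, where leaving out single arrays gave -6.12 to 0.22 and -5.81 to 0.13. A smaller share of the regions than of the transcripts was well above background, above all on the second slide.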
